A study of Mus musculus with 17 samples.

Results

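Maf, Spi1, Cebpa, Cebpb, Zeb2, Runx1, Runx3, Id2 and Nr1h3 encode 9 transcription factors or cofactors known for setting and keeping macrophage identity. They were taken by gene symbol from a table of 22859 genes, and the list was chosen with earlier results of these data known. They are described here in synovial macrophages of adult Fcgr2b-KO mice, which lack the inhibitory Fc gamma receptor. All 9 passed the filter on low counts, as did 15272 genes in all. Every animal, controls included, carried the Fcgr2b deletion, and no wild-type library was used here. Macrophages of the dissected and digested synovium were sorted into LYVE1+CX3CR1+, MHCII+CD11c- and MHCII+CD11c+ cells, either from control mice or 8 h after intravenous injection of immune complexes (IC). Total RNA was sequenced from 17 libraries in 6 groups, with 3 libraries a group except for MHCII+CD11c+ cells after IC, which had 2. The labels do not say whether replicates came from separate animals, so p-values measure only the spread between these libraries, which may be technical.

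Macrophage identity rests on a layered set of regulators. PU.1, encoded by Spi1, opens enhancers in all myeloid cells and works there with C/EBP alpha (Cebpa) and C/EBP beta (Cebpb), the latter being inducible in inflammation. c-Maf (Maf) marks self-maintaining and anti-inflammatory resident macrophages, ZEB2 is a repressor that keeps tissue macrophages distinct, and LXR alpha (Nr1h3) is the oxysterol receptor that drives cholesterol efflux. RUNX1 acts early in blood and myeloid development, while RUNX3 and the inhibitor of E proteins ID2 are best known in dendritic cells, innate lymphoid cells and T cells, as well as in some tissue macrophages.

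Libraries held 2301913 to 7248939 counts assigned to genes, made from 5 ng of RNA each. Levels are given as library-size-scaled counts (CPM, with TMM scaling), and levels of different genes are compared only per kilobase of exon (CPM per kb). Differences are log2 fold changes ± SE of edgeR's quasi-likelihood fit over all 17 libraries, and a gene is called changed at a Benjamini-Hochberg adjusted p under 0.05 over all genes tested. The sorted populations carried their sort genes: Itgax, encoding CD11c, averaged 348 CPM in control MHCII+CD11c+ cells and 1.43 CPM in control LYVE1+CX3CR1+ cells, and H2-Ab1 averaged 8245 and 26.0 CPM. Lyve1 was 1955 ± 334 CPM (SD, n = 3) in control LYVE1+CX3CR1+ cells, 852 ± 242 in control MHCII+CD11c- cells and 146 ± 205 in control MHCII+CD11c+ cells. All 8 macrophage markers examined stood above 3 counts in every group, with summed levels of 7931 to 15102 CPM. They were not even between subsets. In MHCII+CD11c+ against MHCII+CD11c- controls 6 of the 8 were called lower (8.66% of all genes were called), with a median log2 difference of -1.53. In LYVE1+CX3CR1+ against MHCII+CD11c+ controls 6 were higher and 1 lower (15.2% of all genes were called). Averaged over the 3 subsets, 4 of the 8 rose after IC, where 1.7% of all genes did. Fcgr2b itself still gave at least 167 counts in each library, so its row does not check the genotype labels. In bulk RNA, fewer cells of a type and less RNA per cell cannot be told apart, and the 3 IC comparisons and the 3 control comparisons share their control libraries.

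The 9 genes differed widely in level and in steadiness. Averaged over the 17 libraries and per length, Cebpb had 178 CPM per kb, Spi1 89.6, Cebpa 89.4, Maf 57.0, Zeb2 53.1, Id2 52.7, Runx1 17.04, Nr1h3 7.23 and Runx3 6.13. Zeb2 varied least, with its highest library 1.75-fold above its lowest, and the SD of its log2 CPM over the 17 libraries lay at percentile 0.622 of all genes tested. Spi1 followed at percentile 3.23 with a span of 1.78-fold, then Runx1 at 11.3, Cebpa at 19.4, Cebpb at 33.8 and Id2 at 43.5. Maf at percentile 87.9 spanned 14.4-fold, and the low-count genes Nr1h3 and Runx3 lay at 95.8 and 99.3. A small SD is easier to reach at a high count, which these percentiles do not correct for. The plot of levels by library shows that the steady genes were shared by the 3 subsets, whereas Maf, Runx3 and Id2 followed the subset.

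**Figure D1:**
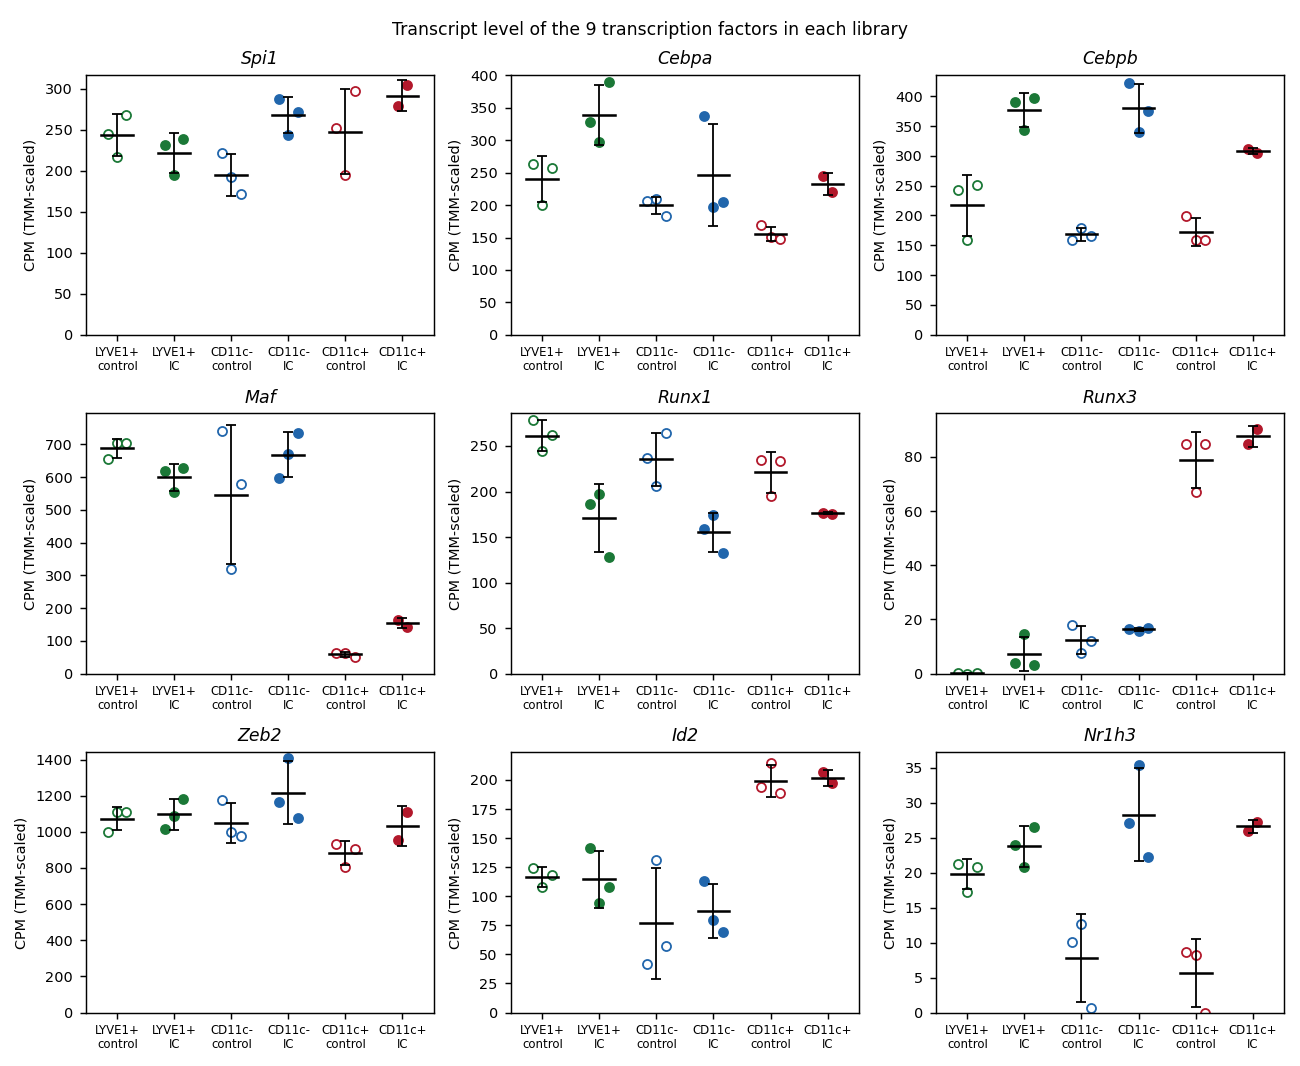
Level of each of the 9 genes in each library, in CPM on a linear axis from 0; open points are control libraries and filled points libraries taken 8 h after IC, green for LYVE1+CX3CR1+, blue for MHCII+CD11c- and red for MHCII+CD11c+ macrophages, with bars at the group mean and error bars for the SD. Maf lay at 51.4 to 63.5 CPM in control MHCII+CD11c+ libraries and at 319.5 CPM or more in every library of the other subsets, whereas Zeb2 stayed between 806 and 1410 CPM throughout.

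Spi1, on chromosome 2 (GRCm38 chr2:91082390-91115756, plus strand), encodes PU.1, the factor on which the myeloid lineage depends. Control libraries gave 245, 216 and 267 CPM in LYVE1+CX3CR1+ cells, 222, 192 and 171 in MHCII+CD11c- cells and 251, 194 and 297 in MHCII+CD11c+ cells. After IC they gave 231, 194 and 239 CPM, then 287, 244 and 271, then 278 and 305. All 6 groups overlapped their neighbours when ordered by mean, from 195 ± 25.5 CPM in control MHCII+CD11c- cells to 291 ± 18.7 (SD, n = 2) in MHCII+CD11c+ cells after IC. Within MHCII+CD11c- cells every IC library was above every control library, and 17.2% of all genes tested did not overlap there. IC and control libraries overlapped in LYVE1+CX3CR1+ and MHCII+CD11c+ cells. Spi1 was not called in any of the 13 comparisons made. Its average log2 change after IC over the 3 subsets was 0.18 ± 0.10 (adjusted p = 0.381), with a 95% interval from -0.02 to 0.39.

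Zeb2 (chr2:44983632-45117395, minus strand), the repressor named above, was as even. Its groups ran from 881 ± 66.3 CPM in control MHCII+CD11c+ cells to 1217 ± 173 CPM in MHCII+CD11c- cells after IC, and the lowest group alone stood clear of its neighbour, MHCII+CD11c+ after IC at 1033 ± 109 CPM. No comparison called Zeb2, and the average IC response was 0.16 ± 0.09 (adjusted p = 0.365, 95% interval -0.01 to 0.33). An antisense gene annotated as Zeb2os overlaps 653 bases of its exons and held 403 counts in the whole table. The strand setting used in counting is not given in the sources used here, so reads of that stretch cannot be assigned to either gene with certainty.

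Cebpb rose after IC. It is a small gene on chromosome 2 (chr2:167688915-167690418, plus strand, 1504 exon bases), and its factor, C/EBP beta, is induced in activated macrophages. Control LYVE1+CX3CR1+ libraries gave 242, 159 and 251 CPM, against 390, 344 and 397 after IC. MHCII+CD11c- libraries gave 160, 180 and 166 CPM in controls and 423, 340 and 376 after IC, and MHCII+CD11c+ libraries 199.5, 158 and 160 CPM and then 312 and 305. Every IC library was above every control library of its subset, and indeed above every control library of all 3 subsets. The rise was 1.73-fold in LYVE1+CX3CR1+ cells (log2 0.79 ± 0.18, adjusted p = 0.0282) and 2.26-fold in MHCII+CD11c- cells (1.17 ± 0.18, adjusted p = 0.00111). In MHCII+CD11c+ cells, with 2 IC libraries, the value was 1.79-fold (0.84 ± 0.19) and did not pass the test (adjusted p = 0.0870), although DESeq2 (adjusted p = 0.0311) and limma's voom (0.0291) called it, the 2 of 14 alternative fits that did. Averaged over the subsets, Cebpb rose 1.91-fold (log2 0.94 ± 0.11, adjusted p = 8.58e-06), and this call held in all 25 alternative fits. The call in LYVE1+CX3CR1+ cells was less secure, since leaving out control library 2, the lowest of that group, gave an adjusted p of 0.138, and it was also lost without control library 1 (0.0614), IC library 1 (0.0540) or IC library 3 (0.0607). Voom (adjusted p = 0.0746) and an edgeR fit of these 2 groups alone (0.0635) did not call it either. No test of a difference between subsets in the Cebpb response passed.

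The Cebpb promoter is shown because this gene, alone among the 9, was called after IC in more than 1 subset. The 250 bases before its RefSeq start (GRCm38.p6 chr2:167688665-167688914, plus strand) are rich in G and C. Both strands were searched for 7 short motifs, and capitals mark matches: GAGGAA, the PU.1 core, is present in 23.3% of all 32851 promoter windows, TGTGGT, the RUNX core, in 14.0%, TTNCGNAA, a C/EBP palindrome, in 2.04%, TGCTGA, a MAF site, in 16.1%, CAGGTG, an E-box bound by ZEB factors, in 17.2%, the glucocorticoid response element in 0.387%, and TGACGTCA, the cyclic AMP response element, in 1.55%. None of these letters occurs in this window of Cebpb, so no capitals appear.
Cebpb: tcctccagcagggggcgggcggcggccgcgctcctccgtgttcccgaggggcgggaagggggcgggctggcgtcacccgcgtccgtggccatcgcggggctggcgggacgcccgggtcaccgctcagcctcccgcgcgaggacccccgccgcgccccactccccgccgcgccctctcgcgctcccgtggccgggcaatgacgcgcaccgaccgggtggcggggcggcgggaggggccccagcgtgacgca

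Cebpa (chr7:35119293-35121928, plus strand), the C/EBP factor of myeloid commitment, moved less. Control libraries gave 263, 199.5 and 258 CPM in LYVE1+CX3CR1+ cells, 206, 209 and 184 in MHCII+CD11c- cells and 169, 150.5 and 148 in MHCII+CD11c+ cells. After IC the values were 329, 298 and 389 CPM, then 337, 197 and 204, then 245 and 220. Libraries after IC lay above the controls without overlap in LYVE1+CX3CR1+ and MHCII+CD11c+ cells but not in MHCII+CD11c- cells, where 1 of 3 was high. No single subset passed the test, with log2 changes of 0.49 ± 0.19, 0.30 ± 0.19 and 0.58 ± 0.21. The average response was 0.46 ± 0.12 (adjusted p = 0.0272), a call lost without LYVE1+CX3CR1+ control library 2, MHCII+CD11c+ control library 3 or either MHCII+CD11c+ IC library. Among controls, Cebpa of LYVE1+CX3CR1+ cells exceeded that of MHCII+CD11c+ cells by 0.63 ± 0.19 (adjusted p = 0.0290), which 8 of 15 alternative fits also called. That call was lost without LYVE1+CX3CR1+ control library 1 or 3 or MHCII+CD11c+ control library 2 or 3. An unnamed gene model, Gm45091, overlaps 51 bases of Cebpa and held 105 counts.

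Set against each other within a library, Cebpb exceeded Cebpa per length in all 17 libraries. The ratio of their CPM per kb ran from 1.39 to 1.71 in control LYVE1+CX3CR1+ cells and from 1.79 to 2.08 after IC. MHCII+CD11c- cells went from 1.36 to 1.58 in controls to between 2.20 and 3.23 after IC, and MHCII+CD11c+ cells from 1.84 to 2.07 to between 2.24 and 2.43. These ranges do not overlap within any subset. They are given as a description without a test.

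**Figure D2:**
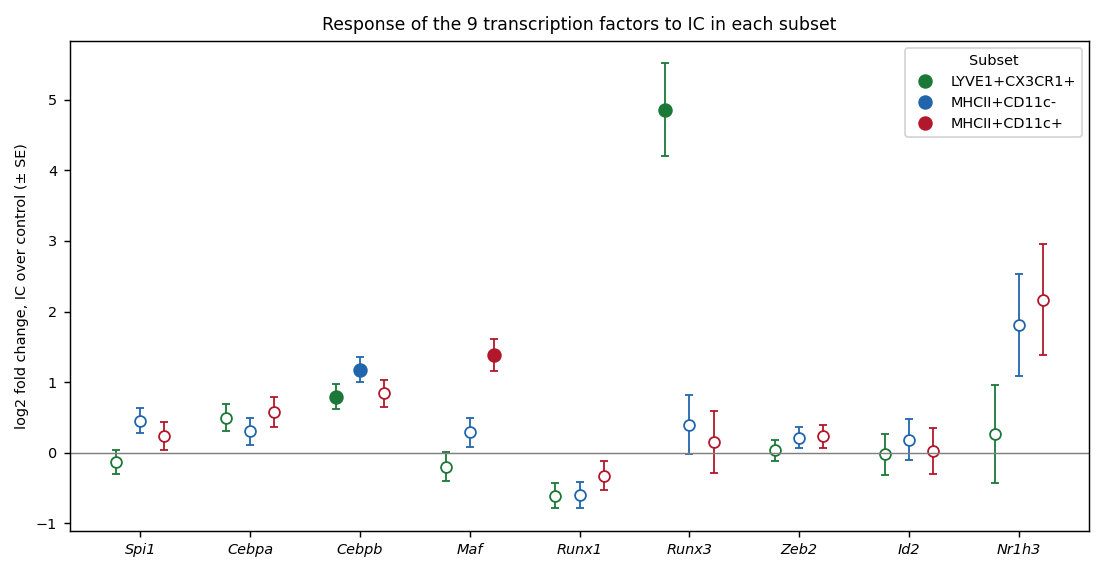
Log2 fold change of each gene 8 h after IC over control, in each of the 3 subsets, with error bars for the SE of the edgeR fit; filled points passed an adjusted p under 0.05 and open points did not. Cebpb lay at 0.79, 1.17 and 0.84 in the 3 subsets and Runx1 at -0.61, -0.60 and -0.33, whereas Runx3 reached 4.86 in LYVE1+CX3CR1+ cells from a control group holding 4 counts in all.

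Of the 10 genes listed as targets of PU.1 and C/EBP factors, 1 was called after IC in LYVE1+CX3CR1+ cells, where 0.963% of all genes were. Cd14, the lipopolysaccharide co-receptor, rose in LYVE1+CX3CR1+ cells by 0.94 ± 0.21 (adjusted p = 0.0291), and none was called in either MHCII+ subset. On average over the subsets 3 rose, where 1.7% of all genes did, and none fell: Cd14 by 0.69, the integrin gene Itgam by 0.58 and Fcgr1, encoding the activating receptor Fc gamma RI, by 1.60. The median of the list was 0.15 on that average, beside -0.07 over all genes tested. Between control LYVE1+CX3CR1+ and MHCII+CD11c+ cells 4 were higher in the former and 3 lower, where 15.2% of all genes were called. They included Csf1r, the receptor for CSF1, at 2.03, Fcgr1 at 2.20, and the GM-CSF receptor genes Csf2ra at -1.37 and Csf2rb, which averaged 55.9 CPM in the former and 449.8 CPM in the latter.

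Maf separated MHCII+CD11c+ cells from both other subsets. The gene, on chromosome 8 (chr8:115682942-115707794, minus strand, 8241 exon bases), encodes c-Maf, a basic leucine zipper factor of resident macrophages. Control LYVE1+CX3CR1+ libraries gave 654, 705 and 704 CPM, control MHCII+CD11c- libraries 740, 320 and 580 CPM, and control MHCII+CD11c+ libraries 61.9, 63.5 and 51.4 CPM. The last group was far below both others, and the MHCII+CD11c- library at 320 CPM stood apart within its own group. LYVE1+CX3CR1+ controls exceeded MHCII+CD11c+ controls 11.6-fold in Maf (log2 3.54 ± 0.23, adjusted p = 2.82e-10), and MHCII+CD11c+ controls were 9.25-fold below MHCII+CD11c- controls (-3.21 ± 0.22, adjusted p = 2.80e-09). Between LYVE1+CX3CR1+ and MHCII+CD11c- controls the difference was 0.33 (adjusted p = 0.689). Both large differences were called in all 15 alternative fits.

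After IC, Maf was at 617, 553 and 627 CPM in LYVE1+CX3CR1+ cells, at 598, 671 and 736 CPM in MHCII+CD11c- cells and at 165 and 143 CPM in MHCII+CD11c+ cells. The last pair was above all 3 of its controls, and still below every library of the other subsets. Maf thus rose 2.61-fold in MHCII+CD11c+ cells (log2 1.38 ± 0.23, adjusted p = 0.00965), while the values in LYVE1+CX3CR1+ cells (-0.20 ± 0.20) and MHCII+CD11c- cells (0.29 ± 0.20) did not pass. Leaving out control library 1 or control library 3 of MHCII+CD11c+ cells ended this call, at adjusted p values of 0.0589 and 0.0762. The call was also lost in a fit of these 2 groups alone (0.0965). It was lost as well without both MHCII+ control libraries numbered 3 (0.159), a choice made after seeing the data. Without IC library 1, which left 1 library in that group, the log2 change was 1.27. The response of LYVE1+CX3CR1+ cells differed from that of MHCII+CD11c+ cells by -1.58 ± 0.31, which did not pass (adjusted p = 0.0594). Of 19 alternative fits 5 called it, among them DESeq2 (0.0268) and a fit with same-numbered libraries of a treatment as blocks (0.0182). No label ties these numbers to animals. MHCII+CD11c+ and MHCII+CD11c- responses differed by 1.09 ± 0.31, also without passing. The average over the 3 subsets, 0.49 ± 0.12, passed (adjusted p = 0.0264) and was called in 19 of 25 alternative fits. It was lost without LYVE1+CX3CR1+ control library 1, MHCII+CD11c- IC library 3, MHCII+CD11c+ control library 3 or MHCII+CD11c+ IC library 1. After IC the subset differences were called again, at 3.88-fold between LYVE1+CX3CR1+ and MHCII+CD11c+ cells (1.96 ± 0.25, adjusted p = 8.21e-06) and 4.33-fold between MHCII+CD11c- and MHCII+CD11c+ cells, the latter lower (-2.11 ± 0.25, adjusted p = 1.91e-05).

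The small Maf genes, whose proteins lack an activation domain, did not move as 1 group: Mafg was higher by 0.87 and Maff at -0.65 in LYVE1+CX3CR1+ against MHCII+CD11c+ controls. After IC Maff was at -1.27 in the same comparison and at -0.71 in LYVE1+CX3CR1+ against MHCII+CD11c- cells.

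Of the 11 genes listed as linked to c-Maf, 9 were called higher in LYVE1+CX3CR1+ controls against MHCII+CD11c+ controls, where 15.2% of all genes were called, and none was lower. Their median log2 difference was 2.46, beside 0.05 over all genes tested. They included Timd4, the phosphatidylserine receptor TIM-4, at 3.80, the complement gene C1qb at 2.10, Adgre1, encoding F4/80, at 1.11 and the haptoglobin-hemoglobin scavenger receptor Cd163 at 1.07. In MHCII+CD11c+ against MHCII+CD11c- controls 8 were lower (8.66% of all genes were called), with a median of -2.09. After IC, Timd4 rose in MHCII+CD11c+ cells by 2.15 ± 0.36 (adjusted p = 0.0114), and the median of the list there was 0.91, beside 0.01 over all genes. None of the 11 was called after IC in the other subsets. The list holds Lyve1, which served as a sort marker, and Timd4 and Folr2, which belong to the same resident program, so it is not independent of the sort.

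Markers of other cells moved with the same subset contrast. The summed level of 8 dendritic cell markers was 20.8 to 28.05 CPM in control LYVE1+CX3CR1+ libraries, 110 to 272 CPM in MHCII+CD11c- libraries and 289 to 704 CPM in MHCII+CD11c+ libraries, and that of 5 monocyte markers was 20.3 to 39.4, 235 to 526 and 566 to 1184 CPM. The MHCII+CD11c- control library with the lowest Maf, number 2, had the lowest dendritic cell sum (110 CPM) and monocyte sum (235 CPM) of its group. The part of such cells in the Maf difference was not tested. For the rise of Maf in MHCII+CD11c+ cells, the dendritic cell sum after IC was 305 and 460 CPM, inside the control range, the monocyte sum 748 and 998.5 CPM, also inside it, and the sum of 9 neutrophil markers 25.7 and 29.7 CPM, below the controls at 92.1 to 484 CPM. Of the 8 macrophage markers 1 was called higher in these cells after IC, where 0.216% of all genes were called. The median of that list was 0.63, beside 0.01 over all genes. The part of these cells and markers in the rise was not tested.

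**Figure D3:**
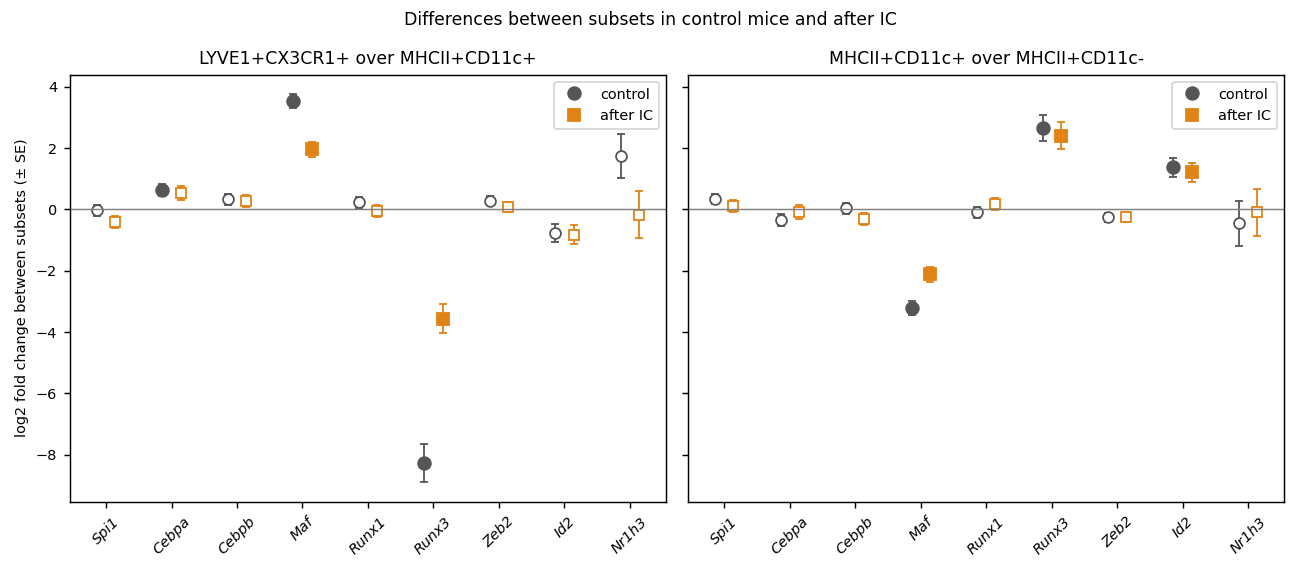
Log2 differences between subsets for each gene with the SE, LYVE1+CX3CR1+ over MHCII+CD11c+ on the left and MHCII+CD11c+ over MHCII+CD11c- on the right; circles are controls, squares libraries after IC, and filled symbols passed an adjusted p under 0.05. Maf stood at 3.54 on the left and -3.21 on the right in controls and at 1.96 and -2.11 after IC, and Runx3 lay on the opposite side of 0 at -8.27 and 2.66 in controls and -3.56 and 2.41 after IC.

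Runx3 ran the other way from Maf. It lies on chromosome 4 (chr4:135120652-135177990, plus strand) and encodes a RUNX factor of dendritic, lymphoid and some tissue-resident myeloid cells. Control LYVE1+CX3CR1+ libraries held 1, 0 and 3 counts, where 3 counts is the floor used for a level not detected. Control MHCII+CD11c- libraries were at 17.9, 7.60 and 12.0 CPM and control MHCII+CD11c+ libraries at 84.9, 67.1 and 84.7 CPM. The 3 control groups did not overlap. MHCII+CD11c+ controls had 6.30-fold the Runx3 level of MHCII+CD11c- controls (log2 2.66 ± 0.43, adjusted p = 0.000187). Against the near-empty LYVE1+CX3CR1+ controls both other subsets were called higher (adjusted p = 9.18e-06 for MHCII+CD11c- and 3.20e-09 for MHCII+CD11c+). Because only 4 counts stand behind that group, the size is given as a ratio of pooled CPM with its exact counting interval, which covers counting error only: 52.6-fold (20.2 to 195) for MHCII+CD11c- and 333-fold (130 to 1224) for MHCII+CD11c+ controls.

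After IC, Runx3 rose in LYVE1+CX3CR1+ cells. The 3 libraries held 14, 46 and 8 counts, or 4.10, 14.5 and 3.32 CPM, all above the controls, with library 2 well above the other 2. The pooled ratio was 32.5-fold (12.1 to 123), or 16.2-fold (5.52 to 64.8) on 22 counts without library 2. That library also stood apart in markers of other cells: its fibroblast sum was 143 CPM against 33.1 and 47.7 in libraries 1 and 3, its endothelial sum 42.8 CPM against 8.19 and 10.8, and its T, NK and innate lymphoid sum 9.13 CPM against 6.14 and 0, and their part in its Runx3 level was not tested. The fit of all 17 libraries called the rise (adjusted p = 0.000405). A fit of these 6 libraries alone did not (0.165), and the call held without each of the 6 libraries in turn. These IC libraries had fewer genes detected at equal depth (11547 to 13869) than their controls (16298 to 17275), which is given as a measurement beside the rise. MHCII+CD11c- cells stood at 16.6, 15.9 and 16.8 CPM after IC and MHCII+CD11c+ cells at 84.8 and 90.3 CPM, within or just above their controls, with log2 changes of 0.39 ± 0.42 and 0.15 ± 0.44 that did not pass. The Runx3 response of LYVE1+CX3CR1+ cells exceeded that of MHCII+CD11c- cells by 4.47 ± 0.80 (adjusted p = 0.0416) and that of MHCII+CD11c+ cells by 4.71 ± 0.82 (adjusted p = 0.0230) on the log2 scale of the fit, whose size rests on 4 control counts. The first difference was lost in 12 of 20 alternative fits, among them voom (0.419), equal depth (0.253), the fit without LYVE1+CX3CR1+ IC library 2 (0.0848) and 8 others that left out 1 library. The second was lost in 7 of 19, with adjusted p values up to 0.143. After IC, Runx3 in LYVE1+CX3CR1+ cells was still 11.8-fold below MHCII+CD11c+ cells (adjusted p = 1.59e-05), and MHCII+CD11c+ cells were 5.32-fold above MHCII+CD11c- cells (2.41 ± 0.44, adjusted p = 0.00172).

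T, NK and innate lymphoid cells also transcribe Runx3, and 9 of 15 listed markers of these cells had a row. Their summed level was 9.29 to 11.4 CPM in control LYVE1+CX3CR1+ libraries, 27.4 to 37.5 in MHCII+CD11c- and 123 to 143 in MHCII+CD11c+ libraries. In the last group it came from Cd2 (87.2 ± 8.96 CPM, SD, n = 3) and Il7r (38.7 ± 4.79 CPM), whereas Cd3d, Lck, Eomes, Klrb1c and Prf1 were at or under 3 counts. In LYVE1+CX3CR1+ cells after IC, where Runx3 rose, the sum was 0 to 9.13 CPM and Cd3d, Lck, Thy1, Tbx21, Eomes and Klrb1c had no count. The dendritic cell sum in those IC libraries was 11.02 to 12.03 CPM, below their controls, and the monocyte sum 8.71 to 21.7 CPM. The T, NK and innate lymphoid sum of 9.13 CPM belonged to IC library 2, which also had the highest Runx3 level of its group (14.5 CPM). The part of these cells in the Runx3 levels and in the rise was not tested.

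Runx1 (chr16:92601466-92826149, minus strand), the RUNX factor of blood stem cells and early myeloid cells, behaved differently from its relative. Control libraries gave 278, 244 and 262 CPM in LYVE1+CX3CR1+ cells, 237, 205.5 and 264 in MHCII+CD11c- cells and 235, 195 and 233 in MHCII+CD11c+ cells. After IC the values were 186, 198 and 129 CPM, then 159, 174 and 132, then 177 and 175. Each IC library was below each control library of its own subset. No subset passed by itself, at -0.61 ± 0.18 (adjusted p = 0.106), -0.60 ± 0.18 (0.154) and -0.33 ± 0.20. On average Runx1 fell by 0.51 ± 0.11 (log2 -0.51, adjusted p = 0.00856), and this call was lost by a small margin without either MHCII+CD11c+ IC library (0.0542 and 0.0502). Runx1 was not called between subsets, before or after IC. Gm26626 overlaps 106 bases of Runx1 and held 216 counts.

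Both RUNX genes have an upstream and a downstream start, and their promoters are shown because the subsets differed in Runx3 and not, by the test, in Runx1. Letters before each start are read on the strand of the gene, from RefSeq on GRCm38.p6, with motif matches in capitals. Runx1 upstream (chr16:92826150-92826324, minus strand) is 175 bases long because exonic bases were left out, and Runx1 downstream is chr16:92697330-92697579, minus strand. Runx3 upstream is chr4:135120395-135120644, plus strand, and Runx3 downstream (chr4:135152295-135152495, plus strand) is 201 bases long. A match describes the letters and is not a binding site shown by these data.
Runx1 upstream: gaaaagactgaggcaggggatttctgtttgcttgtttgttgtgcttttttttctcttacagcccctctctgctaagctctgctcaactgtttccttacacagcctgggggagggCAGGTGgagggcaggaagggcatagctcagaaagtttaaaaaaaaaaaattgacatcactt
Runx1 downstream: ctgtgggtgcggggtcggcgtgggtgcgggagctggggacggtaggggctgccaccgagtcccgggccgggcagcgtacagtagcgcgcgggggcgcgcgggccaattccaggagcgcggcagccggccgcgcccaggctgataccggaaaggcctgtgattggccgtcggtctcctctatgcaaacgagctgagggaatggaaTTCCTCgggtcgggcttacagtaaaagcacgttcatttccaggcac
Runx3 upstream: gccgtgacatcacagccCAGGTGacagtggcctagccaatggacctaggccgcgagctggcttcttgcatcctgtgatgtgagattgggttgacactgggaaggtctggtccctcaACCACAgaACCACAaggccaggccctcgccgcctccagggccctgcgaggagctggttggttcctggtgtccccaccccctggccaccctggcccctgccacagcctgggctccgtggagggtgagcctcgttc
Runx3 downstream: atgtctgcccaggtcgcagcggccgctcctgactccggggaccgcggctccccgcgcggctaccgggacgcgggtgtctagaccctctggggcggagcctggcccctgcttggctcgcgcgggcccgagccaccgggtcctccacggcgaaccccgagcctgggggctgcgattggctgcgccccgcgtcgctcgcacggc

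The upstream window of Runx3 held the RUNX core on the reverse strand (ACCACA) at 2 places and the E-box CAGGTG at 1, while the upstream window of Runx1 held CAGGTG only. The downstream window of Runx1 held 1 PU.1 core on the reverse strand (TTCCTC), and that of Runx3 held none of the motifs. Windows were at hand for 7 of the 9 genes, Maf and Spi1 not being in the promoter table used. Each of the 4 Zeb2 windows held 1 GAGGAA, 1 of 2 Nr1h3 windows held CAGGTG, and the Cebpa and Id2 windows held no match. The Zeb2 windows at chr2:45113254-45113503 and chr2:45113280-45113529 overlap, as do the Nr1h3 windows. Of the Zeb2 windows, only chr2:45117443-45117692 had all its 250 bases before an exon of a protein-coding gene.

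Per length, Runx1 exceeded Runx3 by 5.503 to 11.3 times in control MHCII+CD11c- libraries and by 1.14 to 1.21 times in control MHCII+CD11c+ libraries. After IC the ratio was 3.28 to 4.57 and 0.808 to 0.868 in these subsets, so that Runx3 stood above Runx1 in both MHCII+CD11c+ IC libraries. In LYVE1+CX3CR1+ cells it was 260 and 734 in the 2 control libraries with any Runx3 count and 5.68 to 18.9 after IC.

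Id2, on chromosome 12 (chr12:25093799-25097140, minus strand), encodes the E protein inhibitor, and like Runx3 was highest in MHCII+CD11c+ cells. Unlike Runx3, its mean was lower in control MHCII+CD11c- cells (76.7 CPM) than in control LYVE1+CX3CR1+ cells (117 CPM). The log2 CPM of Id2 and Runx3 correlated at a Pearson r of 0.324 over the 17 libraries. Control libraries gave 124, 108 and 118 CPM in LYVE1+CX3CR1+ cells, 41.6, 131 and 57.2 in MHCII+CD11c- cells and 194, 215 and 189 in MHCII+CD11c+ cells. The last group was above all others, and MHCII+CD11c- library 2 was high for its group, being also the library with low Maf. MHCII+CD11c+ controls had 2.58-fold the Id2 level of MHCII+CD11c- controls (log2 1.37 ± 0.30, adjusted p = 0.00496), a call lost without both control libraries numbered 3 (0.0636). The difference between LYVE1+CX3CR1+ and MHCII+CD11c+ controls, -0.77 ± 0.29, did not pass (adjusted p = 0.0851), but a fit of these 2 groups alone (0.00314), DESeq2 (0.0325) and voom (0.00942) called it, among 4 of 15 alternative fits. Without MHCII+CD11c- library 2, LYVE1+CX3CR1+ controls were also called above MHCII+CD11c- controls in Id2, by 1.24 (adjusted p = 0.00396), against 0.60 (0.511) with it.

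No IC comparison called Id2. Libraries gave 142, 94.1 and 108 CPM in LYVE1+CX3CR1+ cells, 113, 79.5 and 69.3 in MHCII+CD11c- cells and 207 and 197 in MHCII+CD11c+ cells after IC. The average response was 0.06 ± 0.18 (adjusted p = 0.913), with a 95% interval from -0.28 to 0.40, so changes inside that interval could not be told from none. MHCII+CD11c+ cells after IC were again above MHCII+CD11c- cells, by 1.21 ± 0.32 (adjusted p = 0.0351), which was lost without MHCII+CD11c- IC library 2 (0.138) or 3 (0.151) or MHCII+CD11c+ IC library 1 (0.175) or 2 (0.233). Per length, Zeb2 over Id2 was 0.459 to 0.588 in control MHCII+CD11c+ libraries, 0.984 to 1.26 in control LYVE1+CX3CR1+ libraries and 0.930 to 3.46 in control MHCII+CD11c- libraries. The T, NK and innate lymphoid, dendritic cell and monocyte sums given above moved with this contrast as well, and their part in the Id2 values was not tested.

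**Figure D4:**
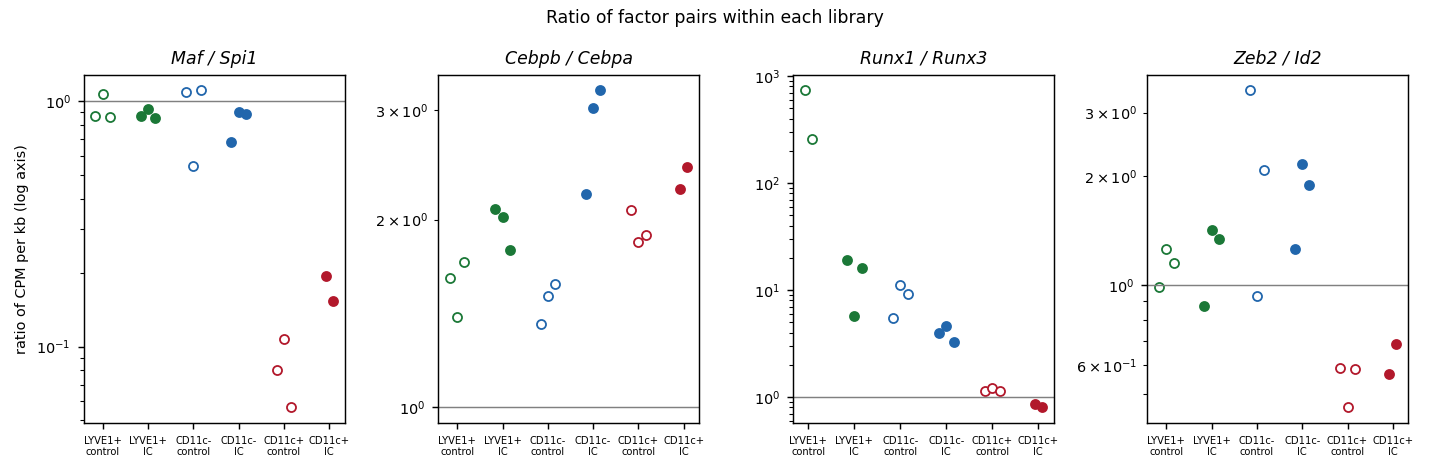
Ratio of CPM per kb between members of 4 pairs in each library (Maf over Spi1, Cebpb over Cebpa, Runx1 over Runx3 and Zeb2 over Id2), on a log axis with a grey line at 1; open points are controls and filled points libraries after IC, coloured by subset. Maf over Spi1 lay between 0.0567 and 0.107 in control MHCII+CD11c+ libraries and between 0.861 and 1.07 in control LYVE1+CX3CR1+ libraries, and the LYVE1+CX3CR1+ control library without a Runx3 count has no point for Runx1 over Runx3.

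Maf over Spi1 put the subset difference on 1 scale. It was 0.543 to 1.11 in control MHCII+CD11c- libraries and 0.683 to 0.901 after IC, close to the LYVE1+CX3CR1+ ranges of 0.861 to 1.07 and 0.858 to 0.931. In MHCII+CD11c+ cells it went from between 0.0567 and 0.107 in controls to 0.154 and 0.194 after IC, 2 ranges that do not overlap.

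Relatives and partners of the 9 factors, 23 genes in all, were called for a minority. In LYVE1+CX3CR1+ against MHCII+CD11c+ controls 5 were higher and 3 lower (15.2% of all genes were called there), in MHCII+CD11c+ against MHCII+CD11c- controls 1 was higher and 4 lower (8.66%), and none was called in the third control comparison (1.56%). Irf4, the partner of PU.1 linked to a dendritic cell program, was at -1.88 in LYVE1+CX3CR1+ against MHCII+CD11c+ controls and at 1.36 in MHCII+CD11c+ against MHCII+CD11c- controls, both called. After IC the same contrasts were -1.78 and 1.83. Irf4 was also the only one of 23 relatives and partners called after IC in a single subset: it fell in MHCII+CD11c- cells (-1.12 ± 0.23, adjusted p = 0.0169) and on average (-0.77 ± 0.14, adjusted p = 0.00187). On average 2 of the 23 were called, 1 in each direction, where 3.35% of all genes were. The dendritic cell marker sum of MHCII+CD11c- cells was 79.0 to 93.7 CPM after IC, below the 110 to 272 CPM of their controls, with a list median of -1.23, none of 7 tested markers called in that subset and 1, Cd209a, lower on average (-1.73). The part of such cells in the Irf4 fall was not tested. Irf8 stood at -1.15 (called in 7 of 15 alternative fits) and Cebpd at -1.13 in MHCII+CD11c+ against MHCII+CD11c- controls, and Cebpd at -1.09 after IC. The E protein genes Tcf4 (1.61) and Tcf12 (1.30), whose products ID2 binds, were called higher in LYVE1+CX3CR1+ against MHCII+CD11c+ controls, and Tcf4 was at 1.29 there after IC and at -1.14 in MHCII+CD11c+ against MHCII+CD11c- controls.

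Nr1h3 (chr2:91184061-91202834, minus strand), which encodes LXR alpha, varied widely within the MHCII+ control groups. LYVE1+CX3CR1+ libraries were even, at 21.3, 17.3 and 20.8 CPM in controls and 24.0, 20.8 and 26.5 CPM after IC. MHCII+CD11c- controls gave 10.02, 12.7 and 0.669 CPM and MHCII+CD11c+ controls 8.72, 8.17 and 0 CPM, the third library of each holding 2 and 0 counts. After IC these subsets stood at 27.1, 35.4 and 22.3 CPM and at 26.0 and 27.3 CPM, above all their controls. The log2 changes, 1.81 ± 0.72 in MHCII+CD11c- cells (adjusted p = 0.372) and 2.17 ± 0.79 in MHCII+CD11c+ cells (0.734), did not pass, nor did the average of 1.41 ± 0.42 (0.0797). Leaving out both libraries numbered 3, a choice made after seeing the data, gave an average of 1.09 with an adjusted p of 0.00723, and DESeq2 called it as well (0.00843). Over all 25 alternative fits the adjusted p of the average ran from 0.00284 to 0.219. Control LYVE1+CX3CR1+ libraries lay above MHCII+CD11c- controls without overlap (21.6% of all genes did not overlap there) and above MHCII+CD11c+ controls (37.7%). Neither difference was called in the main fit. The second (edgeR adjusted p = 0.129) was called by DESeq2 (0.0475), voom (0.0347) and a fit with surrogate variables (0.0196). It was also called with same-numbered libraries as blocks (0.0338) and without both libraries numbered 3 (0.0343), but in no other alternative fit.

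Among the 12 LXR target genes listed, 2 were called in LYVE1+CX3CR1+ cells after IC, where 0.963% of all genes were. Abcg1, a cholesterol exporter, rose by 1.14 ± 0.20 (adjusted p = 0.00671), and Lpl, encoding lipoprotein lipase, fell (log2 -1.81 ± 0.35, adjusted p = 0.0252). None was called in the MHCII+ subsets, where the medians were 0.20 in CD11c- and 0.35 in CD11c+ cells, beside -0.03 and 0.01 over all genes. The exporter Abca1 (2.04), the LDL receptor ligase gene Mylip (1.73) and the efferocytosis receptor gene Mertk (2.87) were among 6 genes called higher in LYVE1+CX3CR1+ against MHCII+CD11c+ controls, and Lpl (-3.14) was 1 of 2 that were lower (15.2% of all genes were called). The LXR beta gene Nr1h2 was higher by 0.63 in the same comparison. Pparg, another lipid-sensing nuclear receptor gene, was at -2.99 there, and after IC at -4.31 against MHCII+CD11c+ and -3.02 against MHCII+CD11c- cells.

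Counted over the 9 genes, IC gave 2 calls in LYVE1+CX3CR1+ cells (Cebpb and Runx3), where 0.963% of all genes tested were called, 1 in MHCII+CD11c- cells (Cebpb, background 0.701%) and 1 in MHCII+CD11c+ cells (Maf, background 0.216%). The average response called 5 (background 3.35%), with Maf, Cebpa, Cebpb and Runx3 higher (1.7%) and Runx1 lower (1.65%). Of these, Maf and Runx3 were each called in a single subset and did not pass in the others, and Cebpa and Runx1 passed in no subset alone. Control and IC libraries did not overlap for 5, 4 and 6 members in the 3 subsets, where the background was 21.6%, 17.2% and 23.1%. Cebpb was above and Runx1 below the controls without overlap in all 3 subsets, as were 0.727% and 0.511% of genes tested in these directions. Of the control comparisons, LYVE1+CX3CR1+ against MHCII+CD11c- cells called Runx3 alone (background 1.56%), LYVE1+CX3CR1+ against MHCII+CD11c+ cells called 3 (Maf, Cebpa and Runx3, background 15.2%) and MHCII+CD11c+ against MHCII+CD11c- cells called 3 (Maf, Runx3 and Id2, background 8.66%). The groups of these comparisons did not overlap for 2, 7 and 5 members, where the background was 21.6%, 37.7% and 27.4%.

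After IC, LYVE1+CX3CR1+ and MHCII+CD11c- cells differed in none of the 9 by edgeR, where 5.54% of genes were called and 3311 genes had an unadjusted p under 0.05. Runx3 came nearest there, at -1.15 ± 0.44 (adjusted p = 0.127), and without LYVE1+CX3CR1+ IC library 2 it was called at -2.10 (0.00789). LYVE1+CX3CR1+ against MHCII+CD11c+ cells called Maf and Runx3 (background 11.9%), and MHCII+CD11c+ against MHCII+CD11c- cells called Maf, Runx3 and Id2 (4.03%). The groups after IC did not overlap for 2, 6 and 5 members in these comparisons, against 21.9%, 40.9% and 36.6% of genes. Differences of responses called Runx3 in both comparisons that involve LYVE1+CX3CR1+ cells, against 0.0262% and 0.0327% of genes, and called no gene between the MHCII+ subsets, where 496 genes had an unadjusted p under 0.05.

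The genes whose log2 CPM was most like each member over the 17 libraries, among 8538 genes, are given as a description, since these libraries share subset and depth. Maf was closest to Nrp1 (Pearson r = 0.979) and Zcchc24 (0.976), and Cebpa to Tgfbi (0.932) and App (0.910). Cebpb was closest to the calcium channel gene Cacna1d (0.910) and Ssbp4 (0.903), and Id2 to Slc2a6 (0.922) and Crip1 (0.919). Runx3 was closest to Slc9a4 (0.932) and the ribosomal protein gene Rpsa (0.923), whose many processed copies make its counts uncertain. Runx1 was nearest to Phf1 and Rbm33 (both 0.851), Nr1h3 to Mmp14 and Edem3 (both 0.893), Spi1 to Cfap43 (0.813) and Gatad2a (0.805), and Zeb2 to Fyb (0.799) and Zcchc2 (0.779). Among the members themselves, Maf and Id2 (-0.756), Maf and Runx3 (-0.717) and Cebpb and Runx1 (-0.728) ran opposite, and Cebpa and Cebpb (0.764) together.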

How the data were processed

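Sorted synovial macrophages were profiled by paired-end total RNA sequencing of stranded low-input libraries. The deposited values are raw counts per gene; per the labels, the authors trimmed reads with Trim Galore, aligned them to mm10 with HISAT2 and counted with featureCounts, without versions given. The strand setting is not given in the sources used here. The joint table has 1 column that matches no sample and sums to 0; it was left out. From the counts, genes were filtered with filterByExpr (minimum count 10), scaled by TMM and fitted with 1 mean per group (17 libraries, 11 residual degrees of freedom) by edgeR 4.0.16 in R 4.3.3 with robust quasi-likelihood, tested on simulated data first. The biological coefficient of variation was 45.1%. DESeq2 1.42.0, voom with sample quality weights (limma 3.58.1), surrogate variables (sva 3.50.0), other scalings and filters, single pairs of groups, a replicate block and leaving out libraries were alternatives. The counts per library (2301913 to 7248939) set the precision of low genes, with 3 counts as the floor. Per-length levels used exon unions of GENCODE M21, and promoters came from RefSeq. Members and lists were chosen with earlier results of these data known. Named were all members, called relatives and partners (1 gene of that list is not reported here), the 4 called genes of smallest p in each other list and comparison, and the 2 most alike genes per member (Pearson r over log2 CPM with a prior count of 2, mean of at least 10 CPM).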

Additional observations from a re-analysis of the deposited data

Results flagged for a closer look

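The IC response of Runx3 differed between subsets by a test of the difference itself, in 2 comparisons. LYVE1+CX3CR1+ exceeded MHCII+CD11c- macrophages by 4.47 ± 0.80 on the log2 scale (edgeR, adjusted p = 0.0416), and alternative fits gave adjusted p values from 0.000859 to 0.419, with 8 of 20 calling it. LYVE1+CX3CR1+ exceeded MHCII+CD11c+ macrophages by 4.71 ± 0.82 (adjusted p = 0.0230), with adjusted p values from 0.000298 to 0.143 and 12 of 19 alternatives calling it. All 3 LYVE1+CX3CR1+ IC libraries were above all 3 controls, which held 4 Runx3 counts together. Groups of 2 or 3 libraries were too small for a test of single outlying libraries.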

How the results depend on the processing

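Of 117 values of the 9 genes over 13 comparisons, 23 were called; 12 of these held in every alternative, 11 were lost in at least 1, and no called value reversed. Voom changed the number of members called from 2 to 1 for IC in LYVE1+CX3CR1+ cells, from 1 to 2 for IC in MHCII+CD11c+ cells, from 1 to 2 between LYVE1+CX3CR1+ and MHCII+CD11c- controls, from 3 to 5 for LYVE1+CX3CR1+ against MHCII+CD11c+ controls, and from 1 to 0 for the difference of LYVE1+CX3CR1+ and MHCII+CD11c- responses. DESeq2 gave 2 for IC in MHCII+CD11c- cells and 2 in MHCII+CD11c+ cells, 5 for LYVE1+CX3CR1+ against MHCII+CD11c+ controls, and 2 for the difference of LYVE1+CX3CR1+ and MHCII+CD11c+ responses, which the fit without a filter on low counts also gave as 2. Surrogate variables gave 2 for IC in MHCII+CD11c- cells, 1 in place of 0 between LYVE1+CX3CR1+ and MHCII+CD11c- cells after IC, and 2 for the latter difference. Fits of only the 2 groups compared gave 0 for IC in LYVE1+CX3CR1+ and 0 in MHCII+CD11c+ cells, and equal depth gave 0 for the difference of LYVE1+CX3CR1+ and MHCII+CD11c- responses. Without both MHCII+ control libraries numbered 3, an alternative added after seeing the data, IC in MHCII+CD11c+ cells and both differences with LYVE1+CX3CR1+ cells gave 0. Leaving out each library in turn gave 1 to 2 for IC in LYVE1+CX3CR1+ cells, 0 to 1 for MHCII+CD11c+ cells, 2 to 5 for the average response, 1 to 2 and 2 to 3 for LYVE1+CX3CR1+ against MHCII+CD11c- and MHCII+CD11c+ controls, 0 to 1 between LYVE1+CX3CR1+ and MHCII+CD11c- cells after IC, and 0 to 1 and 0 to 2 for the differences of LYVE1+CX3CR1+ from MHCII+CD11c- and MHCII+CD11c+ responses. The cause of these changes was not tested, apart from the fewer libraries that some of the fits used.

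The deviations of same-numbered libraries from their group means correlated positively in 16 of 16 library pairs of the same treatment, at 0.286 or less, and in 10 of 24 across treatments, and within a treatment a library correlated best with its own number in 25 of 32 comparisons, a hint from the data and not the design. Correlations were not all over 0.1 (0.0986 and 0.0796 in MHCII+ control pairs 1 and 3) and no label ties numbers to animals, so the numbers were not used as pairs. With a replicate block, LYVE1+CX3CR1+ against MHCII+CD11c+ controls gave 4 members in place of 3, and 2 in place of 1 resulted for the difference of LYVE1+CX3CR1+ and MHCII+CD11c+ responses, where Maf joined Runx3 (adjusted p = 0.0182 in place of 0.0594), and member counts elsewhere were equal.

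Over all genes, IC in LYVE1+CX3CR1+ cells gave 147 calls, against 436 by DESeq2, 46 by voom, 1731 with surrogate variables, 63 in the fit of 2 groups and 87 at equal depth. The median of all genes moved by up to 0.18 (DESeq2), 0.17 (RLE) and -0.28 (surrogate variables) on the log2 scale in single comparisons. Low counts limit Runx3 in LYVE1+CX3CR1+ controls and Nr1h3 in the MHCII+ control libraries numbered 3.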

Other observations

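Markers of further cell types were near their floor or uneven in these libraries. The sum of 5 B cell markers was 0 to 1.67 CPM in control LYVE1+CX3CR1+ libraries, 12.2 to 42.2 in control MHCII+CD11c- libraries and 1.49 to 6.05 in control MHCII+CD11c+ libraries. Among controls, 7 fibroblast markers summed to 33.6 to 67.6, 64.0 to 85.9 and 8.70 to 214 CPM in the same order, and 5 endothelial markers to 8.11 to 13.4, 26.4 to 28.1 and 15.9 to 63.7 CPM. The 9 neutrophil markers summed to 30.8 to 40.5 CPM in control and 12.6 to 32.8 CPM in IC libraries of LYVE1+CX3CR1+ cells, and to 41.1 to 313 and 67.7 to 112 CPM in MHCII+CD11c- cells.
Cx3cr1, which with Lyve1 defined the sort of the resident subset, averaged 432 ± 97.3 CPM in its controls and 268 ± 32.3 CPM (SD, n = 3) in its IC libraries, while Lyve1 averaged 1955 ± 334 and 3619 ± 442 CPM. In MHCII+CD11c- cells Lyve1 averaged 852 ± 242 CPM in controls and 2083 ± 548 CPM after IC. These are values of sort markers and were not set against the 9 genes in a test.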
